A study of Mus musculus with 12 samples.

Results

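The carboxylesterases of the mouse liver are represented here by 10 genes, Ces1c, Ces1d, Ces1e, Ces1f, Ces1g, Ces2a, Ces2c, Ces2e, Ces3a and Ces3b, taken by gene symbol from the 23420 genes counted in each mouse. Liver RNA came from 12 mice, 3 each of wild type females, Siah2 KO females, wild type males and Siah2 KO males, all on a C57BL/6 background, about 20 weeks old and killed at Zeitgeber time (ZT) 10, which is 10 hours after lights on in a 12:12 light and dark cycle. They ate normal chow without restriction. The Siah2 KO mice lack both copies of Siah2, which encodes a ubiquitin ligase, and the wild type and KO mice came from related homozygous lines bred separately after a heterozygote intercross, so that line and genotype cannot be told apart. Transcripts were counted with the QuantSeq 3′ mRNA method, which yields about 1 read per transcript from near the poly(A) tail. Levels are given as CPM, each gene's share of the library's counts times 10 to the power 6, after scaling by trimmed mean of M values (TMM), and they can be set side by side between genes without dividing by transcript length.

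Carboxylesterases are serine hydrolases that cleave ester and amide bonds, and most of them sit inside the endoplasmic reticulum of hepatocytes. They activate or clear ester drugs and other foreign compounds, and several also hydrolyse triacylglycerol and cholesteryl ester, the stored lipid from which lipoproteins are built. In the mouse the genes have multiplied by tandem duplication, so that several closely related copies stand side by side.

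Total counts per mouse ran from 1293688 to 4056144, and the 10 genes took between 0.489% and 0.718% of them. Siah2 itself was read at 11.4 to 16.9 CPM in wild type females and 9.57 to 12.5 in KO females, and at 16.8 to 27.0 in wild type males and 9.39 to 17.3 in KO males, so the genotypes overlapped in both sexes. Which part of Siah2 is deleted could not be read from the sources, and a 3′ read outside it would not check the label. The sex labels matched Xist and the Y-linked Ddx3y in all 12 mice. The wild type female with mouse number 1091 stood apart from its group: its counts differed from those of the other two wild type females by a chi-square of 42.0 and 45.0 per degree of freedom, against 6.71 to 21.8 for the other 10 pairs of mice within a group. The members' comparisons between female genotypes, between the sexes and of their difference are given with and without it, while the lists of other genes were not refitted without it. All 6 hepatocyte markers examined were present, their summed level lying between 24898 and 39081 CPM, and 6 pancreatic acinar markers summed to at most 1.43 CPM.

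All 10 genes lie on chromosome 8 in 2 clusters (GRCm38.p6 coordinates). The first, chr8:93020214-93535879, holds the 5 Ces1 members among 9 carboxylesterase genes. The second, chr8:104734003-105150109, holds Ces2a, Ces2c, Ces2e, Ces3a and Ces3b among 11, and the gap between the clusters measures 11.2 Mb. RefSeq promoter sequence, the 250 bases before the start site that the promoter collection uses, was found for 7 of the 10 members; Ces1d, Ces1f and Ces3a had no entry. For Ces1e and Ces3b that start site lies inside the gene's span, so the last bases of the window are within the gene. Those of Ces1c, Ces1e and Ces1g are shown because they share the 8-base D-box, TTATGTAA, the element bound by the circadian PAR bZIP factors such as DBP, and capitals mark it.
Ces1c, chr8:93131284-93131533, minus strand: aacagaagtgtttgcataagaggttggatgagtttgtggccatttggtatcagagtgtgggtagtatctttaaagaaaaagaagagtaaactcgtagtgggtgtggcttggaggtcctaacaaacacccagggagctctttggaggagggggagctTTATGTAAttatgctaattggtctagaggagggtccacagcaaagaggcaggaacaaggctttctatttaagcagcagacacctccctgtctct
Ces1e, chr8:93229620-93229869, minus strand: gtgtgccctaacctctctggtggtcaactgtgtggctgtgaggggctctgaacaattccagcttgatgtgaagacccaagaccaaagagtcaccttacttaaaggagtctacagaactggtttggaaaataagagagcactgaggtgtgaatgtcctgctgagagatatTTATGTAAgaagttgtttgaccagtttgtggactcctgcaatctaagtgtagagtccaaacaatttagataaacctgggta
Ces1g, chr8:93337210-93337459, minus strand: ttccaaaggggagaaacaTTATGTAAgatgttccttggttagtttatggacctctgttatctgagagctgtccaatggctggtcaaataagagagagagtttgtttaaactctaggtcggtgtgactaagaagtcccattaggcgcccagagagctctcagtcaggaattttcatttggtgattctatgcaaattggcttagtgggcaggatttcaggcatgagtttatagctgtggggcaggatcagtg

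The D-box lay 94 bases before this start site of Ces1c, 81 before that of Ces1e and 232 before that of Ces1g. It was also present in Ces1a and Ces1b, thus in 5 of the 15 carboxylesterase promoters in the collection, all of them Ces1 genes, while Ces1h lacked it. Among all 27025 promoters of the same length, 0.862% held it on either strand. Another motif, GGNCAAAGT, a core of the sites bound by the hepatocyte nuclear receptor HNF4α, was found in 0.899% of all promoters. It was in the members Ces2a and Ces2e, on the strand opposite to the gene and 70 and 80 bases before the start, and in the neighbouring Ces2f and Ces2g. Capitals mark its reverse complement, ACTTTGCCC, in the pair below. Ces2c lacked this motif, as did Ces2h. Ces3b is added because its fold change was the largest of the members between the female genotypes, and it held none of the 5 motifs searched.
Ces2a, chr8:104733753-104734002, plus strand: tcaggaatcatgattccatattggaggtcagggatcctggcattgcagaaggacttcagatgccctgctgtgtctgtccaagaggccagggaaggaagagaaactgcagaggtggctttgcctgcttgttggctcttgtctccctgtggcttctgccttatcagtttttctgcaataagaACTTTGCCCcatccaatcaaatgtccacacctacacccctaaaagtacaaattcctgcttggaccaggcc
Ces2e, chr8:104926010-104926259, plus strand: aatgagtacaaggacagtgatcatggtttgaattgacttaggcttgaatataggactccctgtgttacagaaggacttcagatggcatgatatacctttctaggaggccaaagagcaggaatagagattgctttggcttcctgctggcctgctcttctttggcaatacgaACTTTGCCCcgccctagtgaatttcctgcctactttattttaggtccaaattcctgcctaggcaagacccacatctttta
Ces3b, chr8:105083505-105083754, plus strand: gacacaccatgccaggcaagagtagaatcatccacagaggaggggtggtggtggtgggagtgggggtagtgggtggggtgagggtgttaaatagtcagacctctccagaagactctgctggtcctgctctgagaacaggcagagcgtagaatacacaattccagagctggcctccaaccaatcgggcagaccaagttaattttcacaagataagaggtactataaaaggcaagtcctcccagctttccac

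The other motifs searched on both strands were a STAT5 site, TTCNNNGAA, in 7.18% of all promoters, an E-box, CACGTG, in 6.05%, and the nuclear receptor core AGGTCA in 13.8%. No member held the STAT5 site or the E-box, and AGGTCA was in Ces2a alone. These matches describe the letters in the window and were chosen after the members' values and sequences were known. The copies of a tandem cluster share ancestry, so their motifs are not independent of each other.

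The members spanned a wide range of abundance. Ces1c, the carboxylesterase that lacks the retention signal and is secreted into plasma, averaged 3493 CPM over the 12 mice and ranked 26th of all genes counted. Ces1d, the triacylglycerol hydrolase of the endoplasmic reticulum, averaged 699.9 CPM and Ces2a 696 CPM, each about 5.0-fold below Ces1c. Ces1e, Ces3a and Ces1f followed at 278, 238 and 206 CPM, then Ces3b, Ces1g and Ces2e at 129, 128 and 88.0 CPM.

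Neighbours in that order were often not separated. In wild type females the ranges of Ces1e, Ces3a, Ces1f, Ces1g and Ces3b each overlapped with the next one down, the last of these being Ces2e. Ces1c stood clear of Ces1d in all 4 groups. The order changed with the group. Ces1d was second in both female groups and Ces2a in both male groups, although their ranges overlapped in 3 of these groups and were apart only in KO females.

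**Figure D1:**
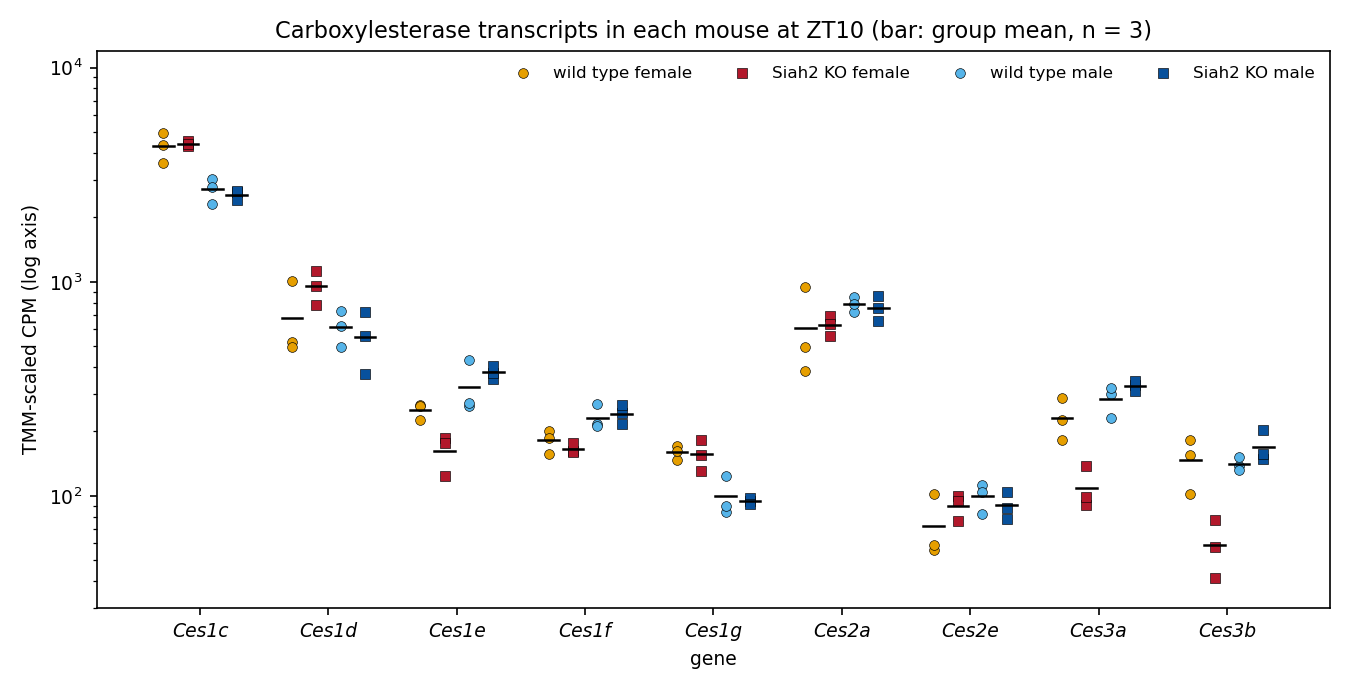
Level of the 9 carboxylesterases with more than a few counts in each mouse, as TMM-scaled CPM on a log axis; each point is 1 mouse and each bar a group mean (n = 3). Ces1c lies highest in every group, between 2308 and 4972 CPM, and the KO females lie lowest for Ces1e, Ces3a and Ces3b.

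Ces2c, whose product hydrolyses diacylglycerol and triacylglycerol, was close to absent. It received 12 counts in the 12 mice together, at most 5 in 1 mouse, and none in 7 mice, so no comparison tested it. A count of 0 allows up to 0.740 CPM in the deepest library and 2.32 CPM in the shallowest. This level carries a mapping limit: 96.5% of the 50-base windows in the last 500 bases of its GENCODE transcript occur unchanged in Ces2b, Ces2d-ps or Ces2e, and the treatment of reads matching several genes was not stated. Ces2b and Ces2d-ps received 1 and 2 counts in all. Shared windows made up 31.0% of the end of Ces3a (all in Ces3b), 25.1% of Ces1c (in Ces1b), 8.20% of Ces2a, 5.99% of Ces3b, 2.22% of Ces1f and 1.77% of Ces1d, and no window was shared by Ces1e, Ces1g or Ces2e. The division of reads between Ces3a and Ces3b is therefore less certain than their sum.

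Of the 10 carboxylesterases that are not members, 9 were in the tables. Ces2g averaged 105 CPM and Ces1b 63.1 CPM, Ces4a averaged 1.75 CPM, and Ces2f, Ces2h and Ces5a had no counts. Neither Ces1b nor Ces2g had an adjusted p under 0.05 in any comparison by edgeR or DESeq2. Ces1b was nonetheless at 70.3 to 79.7 CPM in wild type females and 52.1 to 58.0 CPM in wild type males. KO females were at 62.7 to 82.8 CPM and KO males at 50.3 to 54.1 CPM. Its log2 difference between the sexes was 0.47 (SE 0.18) in wild type and 0.44 (SE 0.18) in KO mice.

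The first question was what loss of Siah2 does to these genes in each sex. In females the members with the largest differences were Ces3a and Ces3b, the liver esterases of the third class, and Ces1e, also called egasyn, which holds β-glucuronidase in the endoplasmic reticulum. All were lower in every KO female than in any wild type female, Ces3a by 2.15-fold, Ces3b by 2.52-fold and Ces1e by 1.56-fold in the fitted means. None passed an adjusted p of 0.05 in edgeR's quasi-likelihood test, in which no gene of the 9465 tested passed in females, whereas DESeq2 called Ces3a and Ces3b.

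Ces3a was read at 226, 181 and 288 CPM in the wild type females and at 90.2, 98.6 and 138 CPM with Siah2 deleted. Ces3b was read at 183, 102 and 155 CPM in the wild type females and at 41.5, 77.0 and 58.0 CPM in the KO females. Both genes thus had wide spreads within each group, but the highest KO female lay below the lowest wild type female. Ces1e was read at 226, 266 and 262 CPM in the wild type females and at 187, 177 and 123 CPM in the KO females. For all 3 genes the groups did not overlap, with the KO females below. That was so for 3 of the 9 tested members and for 11.9% of all genes tested, and no member lay apart in the other direction (23.4% of all genes lay apart in either).

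**Figure D2:**
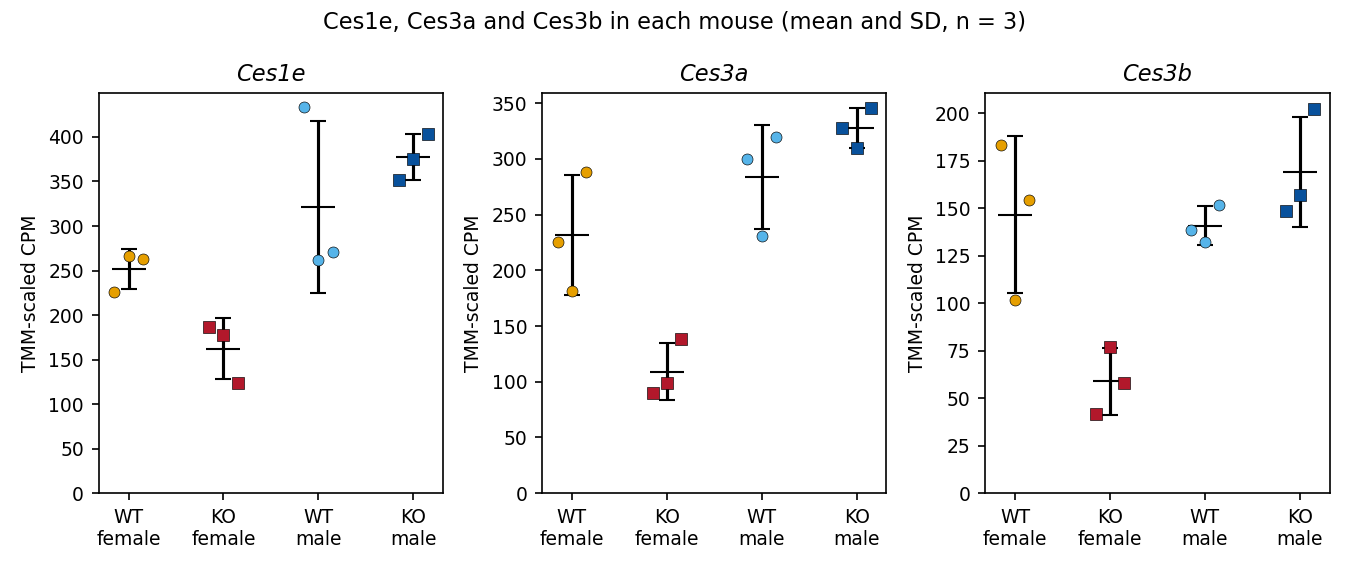
Ces1e, Ces3a and Ces3b in each mouse, as TMM-scaled CPM on an axis from 0; points are mice, the wide bar is the mean and the whiskers 1 SD (n = 3). The KO females lie below the other 3 groups for each gene, between 90.2 and 138 CPM for Ces3a and between 41.5 and 77.0 CPM for Ces3b.

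In edgeR the log2 fold change of Ces3a in females was -1.10 (SE 0.27, adjusted p = 0.115). Ces3b gave -1.33 (SE 0.31, adjusted p = 0.109) and Ces1e -0.64 (SE 0.24, adjusted p = 0.224), also by edgeR. The count of members called was 0 of 9, with 0% of all genes called, and 3 members had an unadjusted p under 0.05 (15.6% of all genes). DESeq2 gave nearly the same fold changes and called 2 members, Ces3a (adjusted p = 0.0141) and Ces3b (adjusted p = 0.00805), where it called 3.7% of all genes. Without wild type female 1091, edgeR called the same pair, Ces3a at -0.91 (adjusted p = 0.0255) and Ces3b at -1.28 (adjusted p = 0.0218), together with 9.64% of all genes. Ces1e was not called in any of the 13 alternatives, its log2 fold change running from -0.75 to -0.49.

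The remaining 6 tested members differed between female genotypes by less than 2 standard errors. Ces1d was read at 525, 1014 and 494 CPM in wild type females and at 779, 956 and 1128 CPM in KO females, a log2 difference of 0.48 (SE 0.32) with overlapping groups. Ces2e gave 0.31 (SE 0.28), Ces1f -0.14 (SE 0.21), Ces1g -0.05 (SE 0.22), Ces2a 0.04 (SE 0.33) and Ces1c 0.02 (SE 0.26) on the same scale. The wild type female 1091 lay highest of its group in Ces2a, at 949 CPM against 384 and 496 CPM, and in Ces2e, at 102 CPM against 55.9 and 58.8 CPM. Without it the log2 difference was 0.52 for Ces2a and 0.66 for Ces2e, neither of them called.

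Ratios between members were chosen after the values were seen, so their separation is no test and adds no support. The ratio of Ces1e to Ces1d did not overlap between the female genotypes. It was 0.109 to 0.240 in the KO females and 0.262 to 0.531 in the wild type females. In males the ratio overlapped, at 0.518 to 1.09 in KO and 0.357 to 0.877 in wild type mice. The ratio of Ces3b to Ces3a did not separate the female genotypes, at 0.420 to 0.781 in KO and 0.537 to 0.811 in wild type females. That of Ces3a to Ces2a was 0.130 to 0.217 in KO and 0.303 to 0.588 in wild type females. In males it overlapped, at 0.401 to 0.470 in KO and 0.319 to 0.408 in wild type mice.

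In males no member passed the test between genotypes. edgeR called 0 of 9 members and 0% of all genes, no member had an unadjusted p under 0.05, against 4.05% of all genes. By DESeq2 none was called either, with 0.037% of all genes called. No member's groups were apart (8.87% of all genes were). Ces3a was read at 300.0, 231 and 320.0 CPM in wild type males and at 328, 310 and 346 CPM in KO males. Ces3b was read at 139, 132 and 152 CPM in wild type males and at 148, 157 and 202 CPM in KO males. The male log2 fold changes of Ces3a and Ces3b were thus above 0, at 0.20 (SE 0.16) and 0.25 (SE 0.17), opposite in sign to those of the females. Ces1e likewise gave 0.22 (SE 0.19), and the 6 others lay between -0.17 and 0.05.

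**Figure D3:**
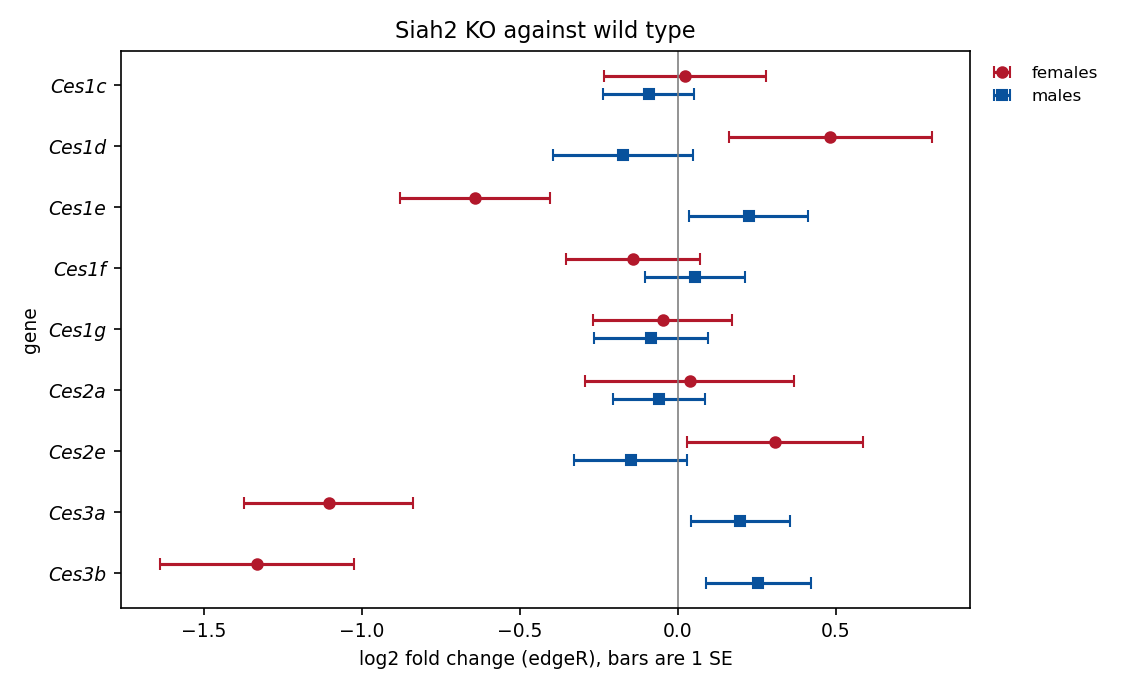
Log2 fold change of Siah2 KO against wild type for the 9 tested members, in females (circles) and males (squares), from edgeR; whiskers are 1 SE. Ces3a, Ces3b and Ces1e lie below 0 in females, at -1.10, -1.33 and -0.64, and above 0 in males, at 0.20, 0.25 and 0.22.

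The difference between the sexes in the effect of genotype was tested directly, as the KO minus wild type change in females less that in males. It was -1.30 for Ces3a (SE 0.31, edgeR adjusted p = 0.0863), -1.58 for Ces3b (SE 0.36, edgeR adjusted p = 0.0786) and -0.86 for Ces1e (SE 0.32, edgeR adjusted p = 0.219) on the log2 scale. edgeR called 0 of 9 members, where it called 0.255% of all genes, and an unadjusted p under 0.05 was reached by 3 members and 14.1% of all genes. By DESeq2 the calls were Ces3a (adjusted p = 0.00673) and Ces3b (adjusted p = 0.00487), with 3.32% of all genes called. Without wild type female 1091 edgeR called the same 2 genes, at -1.11 and -1.54, and 5.15% of all genes.

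With the sexes combined and sex kept as a term, edgeR called 0 of 9 members and 0.0102% of all genes. An unadjusted p under 0.05 was reached by no member and by 7.2% of all genes, and DESeq2 called no member and 0.0112% of all genes. The largest log2 changes were those of Ces3b, -0.52 (SE 0.27), and Ces3a, -0.44 (SE 0.23).

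The second question was how the members differed between the sexes, a contrast that uses the same mice as the genotype comparisons. All females were deposited in 1 table and all males in another, so sex and table cannot be told apart. Ces1c was the member with the largest sex difference in absolute level. It was read at 3580, 4364 and 4972 CPM in wild type females and at 2308, 3025 and 2772 CPM in wild type males. The KO females were at 4291, 4543 and 4392 CPM and the KO males at 2617, 2407 and 2643 CPM. Every female of either genotype lay above every male.

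Ces1g, whose loss in mice raises liver lipid, showed the same order at a lower level. It was read at 147, 172 and 163 CPM in wild type females and at 84.5, 124 and 90.01 CPM in wild type males. KO females were at 183, 155 and 131 CPM and KO males at 94.7, 98.0 and 91.8 CPM. In both genotypes the female values lay above the male ones.

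In wild type mice edgeR called 0 of 9 members between the sexes, where it called 5.15% of all genes. Ces1c was 1.59-fold higher in females (log2 0.67, SE 0.19, edgeR adjusted p = 0.0545) and Ces1g 1.61-fold (log2 0.69, SE 0.20, edgeR adjusted p = 0.0551), and these were the 2 members with an unadjusted p under 0.05, against 20% of all genes. DESeq2 called both (adjusted p = 0.00288 and 0.0173), with 6.95% of all genes. Over 19 alternatives the adjusted p of Ces1c ran from 0.00288 to 0.245 and that of Ces1g from 0.0173 to 0.202. The groups were apart for Ces1c and Ces1g, higher in females, and for Ces1f, lower in females, while 22.5% of all genes had groups apart.

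Leaving out wild type female 1091 changed this comparison most. edgeR then called 4 members and 10.3% of all genes. Ces1c was at 0.56 and Ces1g at 0.67, and Ces2a, at -0.83 (edgeR adjusted p = 0.00659), and Ces2e, at -0.79 (edgeR adjusted p = 0.0169), were lower in females. With all 12 mice Ces2a gave -0.36 (SE 0.27) and Ces2e -0.46 (SE 0.24), and neither was called. In KO mice Ces2a gave -0.26 (SE 0.27) and Ces2e 0.0022 (SE 0.24). Leaving out other mice changed less: Ces1c alone was called without wild type female 1089 (edgeR adjusted p = 0.0394), and Ces1g alone without wild type male 1086 (edgeR adjusted p = 0.0431).

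In KO mice edgeR called 4 of 9 members between the sexes, where it called 3.59% of all genes. It called 1 member higher in females (1.75% of all genes) and 3 lower (1.84%), and 7 members had an unadjusted p under 0.05 (18.3% of all genes). Ces1c was higher in females, by 1.73-fold (log2 0.79, SE 0.19, edgeR adjusted p = 0.0324). Ces3a was lower in females by 3.02-fold (log2 -1.59, SE 0.23, edgeR adjusted p = 0.000592), Ces3b by 2.88-fold (log2 -1.53, SE 0.26, edgeR adjusted p = 0.00254) and Ces1e by 2.31-fold (log2 -1.21, SE 0.23, edgeR adjusted p = 0.00589). The KO females were at 90.2 to 138 CPM of Ces3a against 310 to 346 CPM in KO males, and at 123 to 187 CPM of Ces1e against 352 to 403 CPM. These 3 lower calls were made in all 19 alternatives, while that of Ces1c was lost in 9 of them: with no filter, without any 1 of the 6 KO mice, and without wild type male 1086 or 1087, with edgeR adjusted p-values of 0.0569 to 0.154.

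DESeq2 called 6 members in KO mice (5.58% of all genes), adding Ces1f at -0.55 and Ces1g at 0.73. The groups were apart for 7 members, against 29.8% of all genes, 3 of them higher in females (14.5%) and 4 lower (15.3%). Ces1d was among those higher, at 0.79 (SE 0.30, edgeR adjusted p = 0.165), and 4 of the 19 alternatives called it. In wild type mice Ces1d gave 0.14 (SE 0.30), with overlapping groups. Without wild type female 1091, which enters through the shared spread, edgeR called 6 members here and 9.6% of all genes. In wild type mice the same contrast gave -0.29 (SE 0.22) for Ces3a, 0.06 (SE 0.25) for Ces3b and -0.35 (SE 0.22) for Ces1e, all with overlapping groups. The difference between the 2 sex contrasts is the value tested above for the sexes.

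**Figure D4:**
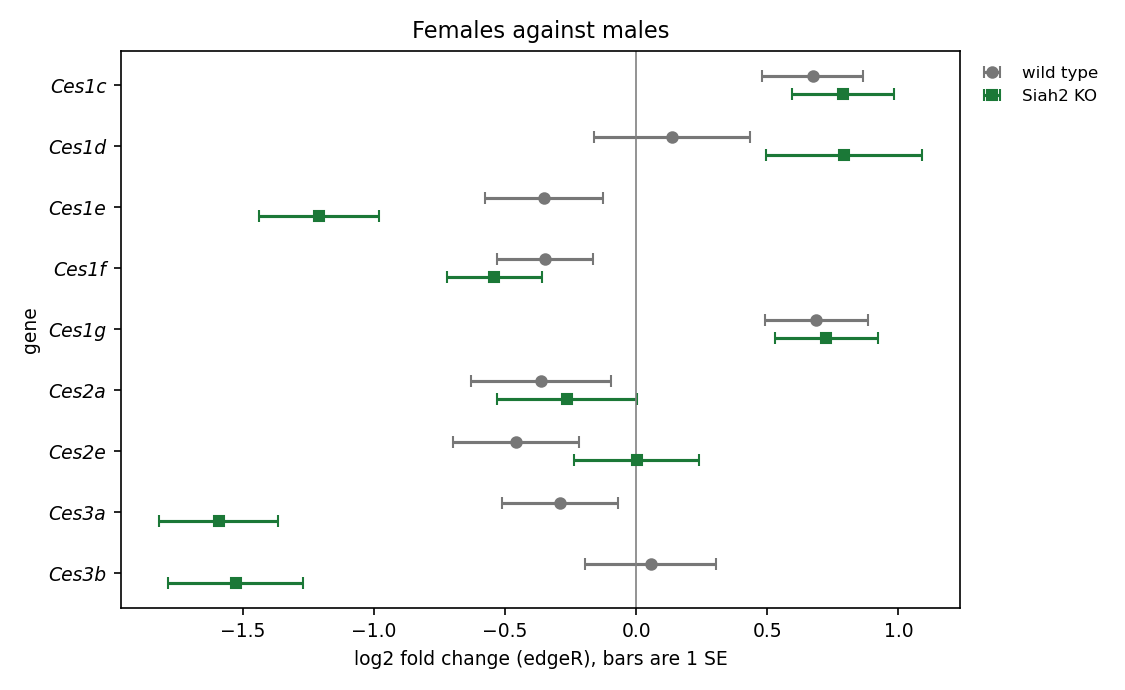
Log2 fold change of females against males for the 9 tested members, in wild type (circles) and Siah2 KO mice (squares), from edgeR; whiskers are 1 SE. Ces1c and Ces1g lie between 0.67 and 0.79 in both genotypes, and Ces1e, Ces3a and Ces3b lie at -1.21, -1.59 and -1.53 in KO mice. Ces1d lies at 0.14 in wild type and 0.79 in KO mice.

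Markers of other cells also moved with sex. Of 6 genes on a list of Kupffer and other immune markers 5 were in the tables, and edgeR called Vsig4, Clec4f and Cd74 higher in wild type females. Their summed level was 309 to 428 CPM in wild type females, 250 to 406 in KO females, 54.9 to 274 in wild type males and 70.5 to 148 in KO males. Vsig4 and Clec4f were also called higher in females by edgeR in KO mice. Of 4 endothelial markers edgeR called Clec4g, higher in wild type females (log2 0.83, SE 0.21, adjusted p = 0.0353). The 4 summed to 194 to 297 CPM in wild type females and 161 to 181 CPM in wild type males. In KO mice they summed to 172 to 188 CPM in females and 145 to 160 CPM in males. Alas2, the red cell marker with a called difference, was lower in females (log2 -2.05 in wild type and -3.15 in KO mice), at 8.43 to 25.1 CPM against 83.6 to 154 CPM in males, and the 4 globin genes of that list were at 0. Their part in the carboxylesterase differences was not tested, and in whole liver fewer cells of a type and less RNA per cell cannot be told apart. Summed hepatocyte markers overlapped between the sexes, at 28587 to 39081 CPM in females and 24898 to 34585 CPM in males. Within females they overlapped between genotypes, at 34011 to 39081 CPM in wild type and 28587 to 37661 CPM in KO mice.

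Some marker lists also lay apart between the female genotypes, as Ces1e, Ces3a and Ces3b did. The 4 endothelial markers summed to 194 to 297 CPM in wild type and 172 to 188 CPM in KO females, and the 7 fat markers to 53.7 to 56.3 CPM and 61.6 to 114 CPM, with Adipoq, Plin1 and Retn at 0 in all 6 females. Alas2 was at 19.99 to 25.1 CPM in wild type and 8.43 to 19.1 CPM in KO females, and 4 kidney tubule markers summed to at most 4.78 CPM in any of them. The 4 stellate markers overlapped, at 209 to 343 CPM and 164 to 229 CPM, and so did the Kupffer and immune list. No gene of these lists was called between the female genotypes by edgeR or DESeq2, and their part in the differences of Ces1e, Ces3a and Ces3b was not tested.

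The 10 genes summed to 5483 to 7571 CPM in wild type females, 6527 to 6862 CPM in KO females, 4985 to 5529 CPM in wild type males and 5056 to 5273 CPM in KO males. The higher mean sum in females lay in Ces1c, and the mean of the other members together went the other way. Between wild type females and males the ranges overlapped, with and without Ces1c, while in KO mice they did not. Without Ces1c the sum was 1904 to 2599 CPM in wild type females and 2503 to 2677 CPM in wild type males, with means of 2331 and 2579 CPM. In KO mice it was 2236 to 2469 CPM in females and 2558 to 2648 CPM in males. The share of Ces1c in the sum was 63.7% to 66.6% in the 6 females and 46.3% to 54.7% in the 6 males. Ces2a held 7.01% to 12.5% in females and 13.0% to 17.0% in males. A higher Ces1c lowers every other share, and in CPM Ces2a overlapped between the sexes in both genotypes. The shares of Ces3a and Ces3b were lower in KO females, Ces3a at 3.52% ± 0.774 (SD, n = 3) in wild type and 1.61% ± 0.348 in KO females, and Ces3b at 2.29% ± 0.953 and 0.870% ± 0.247. The share of Ces1d was 10.3% ± 4.18 in wild type and 14.1% ± 2.25 in KO females, with overlapping groups.

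**Figure D5:**
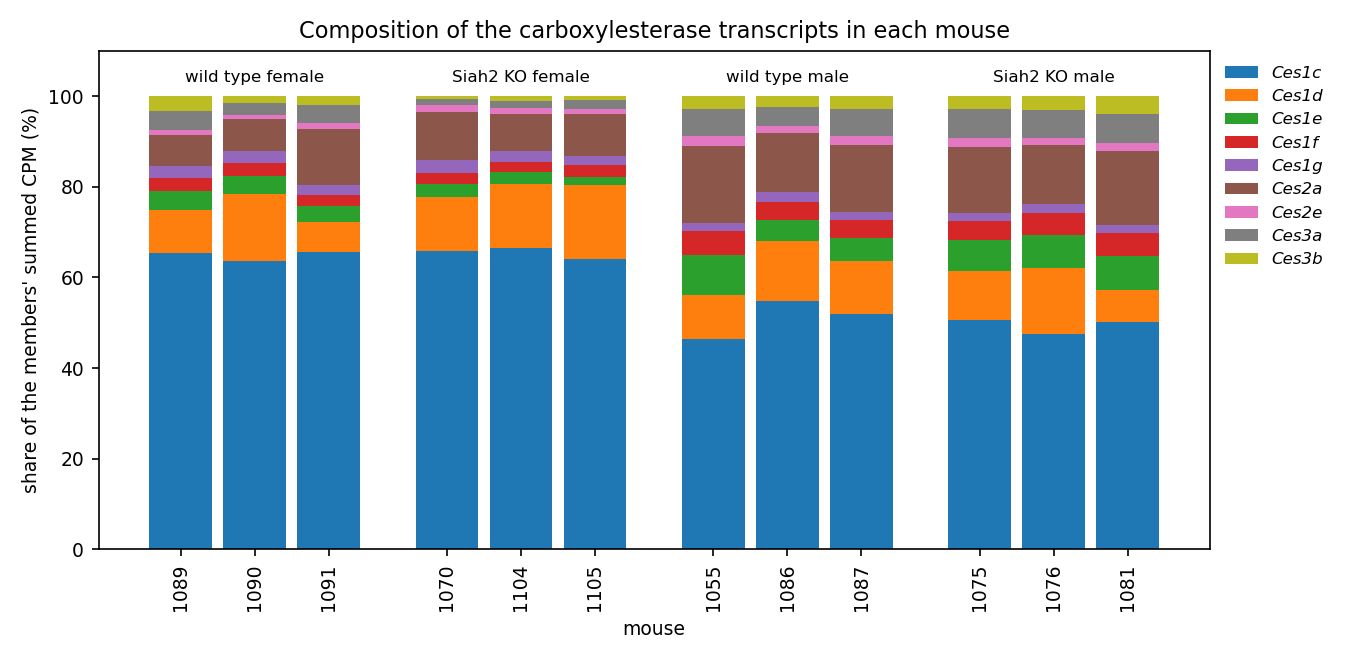
Share of each member in the summed CPM of the members, 1 bar per mouse, with the mouse numbers below and the 4 groups above. Ces1c fills 63.7% to 66.6% of the bar in females and 46.3% to 54.7% in males, and the Ces3a and Ces3b segments are thinnest in KO females.

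Within groups, Ces2a and Ces2e varied together. With the 4 group means taken off, their log2 levels had a Pearson r of 0.82 over 12 mice, the highest of any member pair, and wild type female 1091 was high in both. Ces1g and Ces3a had the most negative value, -0.74. These correlations describe 12 mice whose depth differed, and carry no test. From 6526 genes of at least 10 CPM, members included, the non-member with the most similar deviations was taken for each member. For Ces3b it was Cyp7a1, the rate-limiting enzyme of bile acid synthesis (Pearson r 0.95, Spearman rho 0.97). For Ces3a it was Myo1d (r 0.93, rho 0.89), for Ces1e Rp9 (r 0.97, rho 0.96), for Ces1d Ddx21 (r 0.92, rho 0.94) and for Ces1c St3gal5 (r 0.95, rho 0.81). For Ces1f it was Cir1 (r 0.93, rho 0.87), for Ces1g Supv3l1 (r 0.93, rho 0.85), for Ces2a Gxylt1 (r 0.97, rho 0.90) and for Ces2e Aamdc (r 0.99, rho 0.96). The highest of so many correlations is large by construction.

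Other ester, lipid and epoxide hydrolases of liver were read beside the members. Of 28 listed genes 25 were tested in females, where edgeR called none between genotypes and 3 passed an unadjusted 0.05, with a median log2 change of -0.22 against -0.03 for all genes. DESeq2 called 1, Pnpla7, a lysophospholipase, at -1.17 (adjusted p = 0.0188). In males edgeR called none of 25, with 1 at an unadjusted p under 0.05, and none passed in DESeq2. Between the sexes in wild type mice edgeR called 3 of 26: Pon1, the paraoxonase of high density lipoprotein, at 1.10 (SE 0.19), Acot3, a peroxisomal acyl-CoA thioesterase, at 2.63 (SE 0.58), and Fitm1, which takes part in lipid droplet formation, at -2.08 (SE 0.43). In KO mice it called 4 of 26, Acot3 at 4.33 (SE 0.65), Acot4 at 1.90 (SE 0.35), Fitm1 at -2.39 (SE 0.42) and Pnpla7 at -1.31 (SE 0.27).

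Among 12 regulators known to act on carboxylesterase or drug metabolism genes, edgeR called none between genotypes in either sex, and 2 had an unadjusted p under 0.05 in females and none in males. Nr1i2, which encodes the xenobiotic receptor PXR, averaged 134 ± 38.0 CPM in wild type and 65.2 ± 10.4 CPM in KO females (SD, n = 3), and DESeq2 called it at -1.04 (adjusted p = 0.0320). The male means were 68.7 ± 16.01 CPM in wild type and 85.7 ± 15.6 CPM in KO mice. Between wild type sexes edgeR called Nr1i2 alone, higher in females at 0.98 (SE 0.25, adjusted p = 0.0361), and in KO mice it called none of the 12, where 3 passed an unadjusted 0.05 and 1 passed in DESeq2.

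The scale of the members' sex differences can be set beside genes known for sex bias in mouse liver. All 8 male-biased reference genes were called lower in females in both genotypes, with a median log2 difference of -5.29 in wild type and -6.02 in KO mice. Of 9 female-biased reference genes 7 were tested, of which edgeR called 6 in wild type and 7 in KO mice, with median differences of 7.62 and 7.64. The largest member difference, that of Ces3a in KO mice, was -1.59. Genes flanking the clusters gave little to compare: of 20 listed neighbours 7 were in the tables, and only Cbfb (26.2 CPM) and D230025D16Rik (6.49 CPM) were abundant enough to test, neither of them called in any comparison.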

How the data were processed

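Livers of individual mice, 3 per sex and genotype, were profiled with the QuantSeq 3′ mRNA kit. Read trimming, mapping and counting were done by the authors in BaseSpace (Illumina), and the deposited values are raw counts per gene, with females and males in separate tables; the submitters' processing notes name STAR, DESeq and the mm10 build. The tables' means, fold changes and p-values made by the authors were not used. The deposited counts were tested with edgeR 4.0.16 (limma 3.58.1, R 4.3.3): filterByExpr, TMM scaling, glmQLFit and glmQLFTest, two-sided, with Benjamini-Hochberg adjustment over all genes tested and a threshold of 0.05. Genotype was compared within each sex on 6 mice and over 12 mice with sex as a term. The sexes and the difference between them were compared in 1 fit of 4 groups. DESeq2 1.42.0, limma-voom with and without quality weights, other scaling, no filter, other sets of mice and each mouse left out were the alternatives. The scripts were tested on simulated data.

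The named genes were the 10 members and, from the lists of hydrolases, regulators and cell markers, the genes passing the adjusted p (up to 5). Others were named beside counts. The sex-biased reference genes were given as counts and medians. Members and lists were chosen with earlier results of these data known. The 12 libraries held 1293688 to 4056144 counts, of which Rn45s, a ribosomal RNA precursor, took 5.68% to 17.9%. Reads carry no molecular identifiers, so the limits given for counts of 0 (3 counts of the total) cover counting error only. CPM and correlations used all 12 mice, with a prior of 3 counts on the log scale for the latter. The tables hold 25 gene symbols turned into dates, none of them a member. The labels' protocol speaks of RNA pooled from 3 mice and the study's methods of individual livers, and the latter was followed here; p-values measure the spread between these samples. Positions and promoters are from RefSeq on GRCm38.p6, and transcript ends from GENCODE M1 sequences, used without coordinates.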

Additional observations from a re-analysis of the deposited data

Results flagged for a closer look

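For Ces3a and Ces3b the KO minus wild type difference itself differed between females and males in DESeq2, by -1.31 (adjusted p = 0.00673) and -1.58 (adjusted p = 0.00487) on the log2 scale. DESeq2 called 3.32% of all genes for this difference. Ces3a was lower in 3 of 3 KO females than in any wild type female, and so was Ces3b. The same held for 11.9% of all genes. In males the groups overlapped for both genes, while 8.87% of all genes had groups apart. edgeR gave nearly the same sizes with adjusted p-values of 0.0863 and 0.0786, which miss the threshold. Over 18 alternatives the adjusted p ran from 0.00244 to 0.207 for Ces3a and from 0.00132 to 0.196 for Ces3b, and 5 of the 18 called each gene. Leaving out wild type female 1091 made edgeR call both genes, together with 5.15% of all genes.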

How the results depend on the processing

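The number of members called depended on the tool. The number of all genes called, given in brackets, depended on it too. In females 0 members were called in edgeR (0 of 9465 genes). The number was 2 in DESeq2 (303 of 8185 genes) and in limma-voom with quality weights (1058 of 9465). It was also 2 with no filter (484 of 17177) and in 1 fit of all 12 mice (427 of 9806). DESeq2 without wild type female 1091, an alternative chosen after seeing the data, called 2 as well (828 of 6795). Between wild type sexes it was 0 in edgeR (505 of 9806 genes), and 2 in DESeq2 (736 of 10597) and limma-voom (495 of 9806). It was 4 in limma-voom with quality weights (1130 of 9806) and in DESeq2 without 1091 (1076 of 8821). Between KO sexes it was 4 in edgeR (352 of 9806 genes). It was 7 in limma-voom with quality weights (1186 of 9806), in a fit of the 6 KO mice (1044 of 9102) and in DESeq2 without 1091 (938 of 9856). For the difference between the sexes it was 0 in edgeR (25 of 9806 genes). It was 2 in DESeq2 (260 of 7824), in limma-voom with quality weights (558 of 9806), with no filter (325 of 17874) and in DESeq2 without 1091 (647 of 6752). Leaving out single mice gave 0 to 2 calls in females, 0 to 4 between wild type sexes, 3 to 6 between KO sexes and 0 to 2 for the difference. The 2, 4 and 6 came without 1091. Without it edgeR called 936 of 9709 genes in females and 1043 of 10127 between wild type sexes. It called 972 of 10127 between KO sexes and 522 of 10127 for the difference. The cause of these shifts was not tested. In males and in both sexes together no alternative called a member. The most genes called there were 29 of 16219 in males and 71 of 17874 in both sexes, each with no filter.

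The log2 changes that turned their direction were not called in any setting. With both sexes, Ces1c went from -0.023 to 0.034 (limma-voom with quality weights) and 0.026 (DESeq2 without 1091), and Ces2a from 0.0012 to -0.0034 (DESeq2), -0.0053 (RLE scaling), -0.0077 (no filter) and -0.020 (no sex term). Ces3b between wild type sexes became -0.0022 (DESeq2 without 1091), and Ces2e between KO sexes -0.00043 (DESeq2). Leaving out single mice gave, in females, -0.099 to 0.15 for Ces1c, -0.17 to 0.053 for Ces1g and -0.21 to 0.52 for Ces2a. In males it gave -0.18 to 0.020 for Ces1c, -0.42 to 0.060 for Ces1d, -0.0033 to 0.18 for Ces1f, -0.17 to 0.13 for Ces1g and -0.15 to 0.037 for Ces2a. With both sexes it gave -0.082 to 0.018 for Ces1c, -0.096 to 0.012 for Ces1f, -0.11 to 0.015 for Ces1g, -0.11 to 0.20 for Ces2a and -0.020 to 0.20 for Ces2e. Between wild type sexes it gave -0.23 to 0.32 for Ces1d and -0.14 to 0.31 for Ces3b, and between KO sexes -0.091 to 0.11 for Ces2e. For the difference it gave -0.0084 to 0.24 for Ces1c, -0.18 to 0.15 for Ces1g and -0.15 to 0.58 for Ces2a.

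No paired analysis was possible because the groups share no mouse numbers. Ces2c, at 12 counts in all, could not be compared. Reads shared between Ces3a and Ces3b, or between Ces1b and Ces1c, limit the split within those pairs.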
